A study of Mus musculus with 6 samples.

Results

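Of the 46072 genes in each library's table, 8 are described here. They were chosen by symbol, with earlier results of these data known, and all 8 were found and tested. Carm1, Prdm14, Sox21 and Cbfa2t2 belong to the regulators that have been tied to differences between blastomeres of the 4-cell mouse embryo. Neat1, Nono, Sfpq and Pspc1 encode the parts of paraspeckles, nuclear bodies built on a long noncoding RNA. Mouse 4-cell embryos were profiled with Smart-Seq2, which copies polyadenylated RNA into full-length cDNA and keeps no record of the strand. There were 3 control libraries and 3 libraries from embryos whose zygotes had been injected with siRNA against Son, a nuclear speckle protein that acts in pre-mRNA splicing. The labels give no mouse strain, no age, no number of embryos per library and no description of what the control embryos received. Whether the libraries stem from different litters is not stated either, and p-values therefore reflect only library-to-library spread, which may be technical.

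In the early mouse embryo, CARM1 methylates arginines of histone H3, and blastomeres with more of it tend to contribute to the inner cell mass. PRDM14, a zinc finger protein of the PR domain family, works with CARM1 in this setting and with the scaffold protein CBFA2T2 in embryonic stem cells and germ cells. SOX21 is a target of OCT4 and SOX2 whose level also differs among blastomeres and which restrains Cdx2, a gene of the outer lineage. CARM1 gathers in paraspeckles of the early embryo. These bodies form around NEAT1 RNA bound by the DBHS proteins NONO, SFPQ and PSPC1, a family of RNA-binding proteins that pair with each other. A library holds the RNA of whole embryos, so differences between blastomeres are not visible here. Fewer cells with a transcript and less of it per cell cannot be told apart.

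How much Neat1 such libraries can capture depends on its 3′ ends, and these are therefore shown. The gene lies on chromosome 19 from 5824708 to 5845478, on the minus strand of GRCm38, and has a short and a long annotated form that start within a few bases of each other. The short form of 3004 bases (chromosome 19, 5842307 to 5845476), is processed at a poly(A) signal, and its last 80 bases are given with that signal in capitals. The long form of 20771 bases that builds paraspeckles, ends instead in a structure in which an A-rich tract pairs with U-rich stretches. Its last 80 bases are given with the tract and its complement in capitals, both read 5′ to 3′ from GENCODE vM21 transcripts.
Neat1 short form: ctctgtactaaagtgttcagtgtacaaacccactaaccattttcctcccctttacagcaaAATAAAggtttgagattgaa
Neat1 long form: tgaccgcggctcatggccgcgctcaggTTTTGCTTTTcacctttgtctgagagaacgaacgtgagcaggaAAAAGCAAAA

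The signal AATAAA starts 20 bases before the end of the short form. AATAAA or ATTAAA, searched on the transcript strand, occurs in the last 80 bases of 35.7% of 140371 annotated mouse transcripts. The closest such match in the long form starts 2077 bases before its end. The last 10 bases of the long form are the exact reverse complement of a stretch 33 bases upstream. Of the 140371 transcript ends, 72 held the reverse complement of their last 10 bases elsewhere in the last 80, at any spacing. Oligo(dT) priming captures polyadenylated RNA, and the gene-level counts do not say which form a read came from. The Neat1 values here therefore do not measure the long form by itself.

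Library totals ranged from 104634855 to 118865650 estimated count units, and 4 units were taken as about 1 read pair. A floor of 3 read pairs then corresponds to 0.0909 to 0.125 CPM, the count scaled to library size after correction by the TMM factor of edgeR, and such floors cover counting error only. The target Son averaged 301 ± 45.3 CPM in controls against 31.4 ± 8.48 CPM with Son siRNA (SD, n = 3 each; log2 -3.26, SE 0.272, edgeR adjusted p = 0.00991). That call was lost without siRNA library 1, 2 or 3 (adjusted p = 0.0648, 0.0709 and 0.136). All 8 oocyte and early embryo markers were detected in each library, and their summed level was 551 to 1099 CPM in controls against 746 to 1108 CPM with Son siRNA, most of it Dppa3. Of the 8, 7 had a log2 fold change above 0, with a median of 0.57 against 0.02 over all genes tested. None of them passed the adjusted threshold, and at an unadjusted p under 0.05 there were 1 lower and 2 higher. Zp3, a zona pellucida gene of the oocyte, had 40, 39.4 and 62 CPM in controls and was at 68, 67.8 and 87.8 CPM in the siRNA libraries. The part of such maternal transcripts in the differences reported here was not tested. Of the markers of cumulus, sperm and blood cells, 3, 3 and 4 of 8 each were at 0 throughout, among them Fshr, Foxl2, Tnp2, Ptprc and Hbb-bs. Summed levels of the cumulus list were 0 to 0.872 CPM in controls, against 0.107 to 0.316 CPM with Son siRNA. For the sperm list, most of which was Odf2, they were 13.6 to 30 and 26.5 to 34.3 CPM, and for the blood list 10.7 to 15.1 and 11.3 to 14.6 CPM. Most of the blood sum was Hba-a1, Hba-a2 and Cd68. These averaged 6.9, 2.1 and 4.3 CPM in controls, against 6.5, 3.66 and 2.64 CPM with Son siRNA.

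The comparison asked which of the 8 genes differed between control and Son siRNA embryos. Prdm14 showed the widest difference, with every siRNA library far below every control. Sox21 and Nono were also lower in each siRNA library than in any control, by smaller amounts. None of the 8 passed an adjusted p of 0.05 in edgeR's quasi-likelihood test over all 17788 genes, where 160 genes were lower (0.899%) and 16 higher (0.0899%), together 0.989%. At an unadjusted p under 0.05, 3 of the 8 were lower and 0 higher, against 8.86% and 5.88% of all genes tested. Groups did not overlap for those 3 genes, all lower, against 11.6% of all genes lower and 12.1% higher, together 23.7%. DESeq2 called 2 of the 8, Prdm14 and Sox21, both lower (all genes, 4.63% lower and 2.28% higher). Prdm14 alone passed with limma-voom with group weights (1.86% of all genes lower), with counts divided by 4 (1.9% lower) and with a stricter filter on low counts (1.73% lower). The median log2 fold change of the 8 was -0.70, with 6 below 0, and that of all genes tested was 0.02, with 48.7% below 0.

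**Figure D1:**
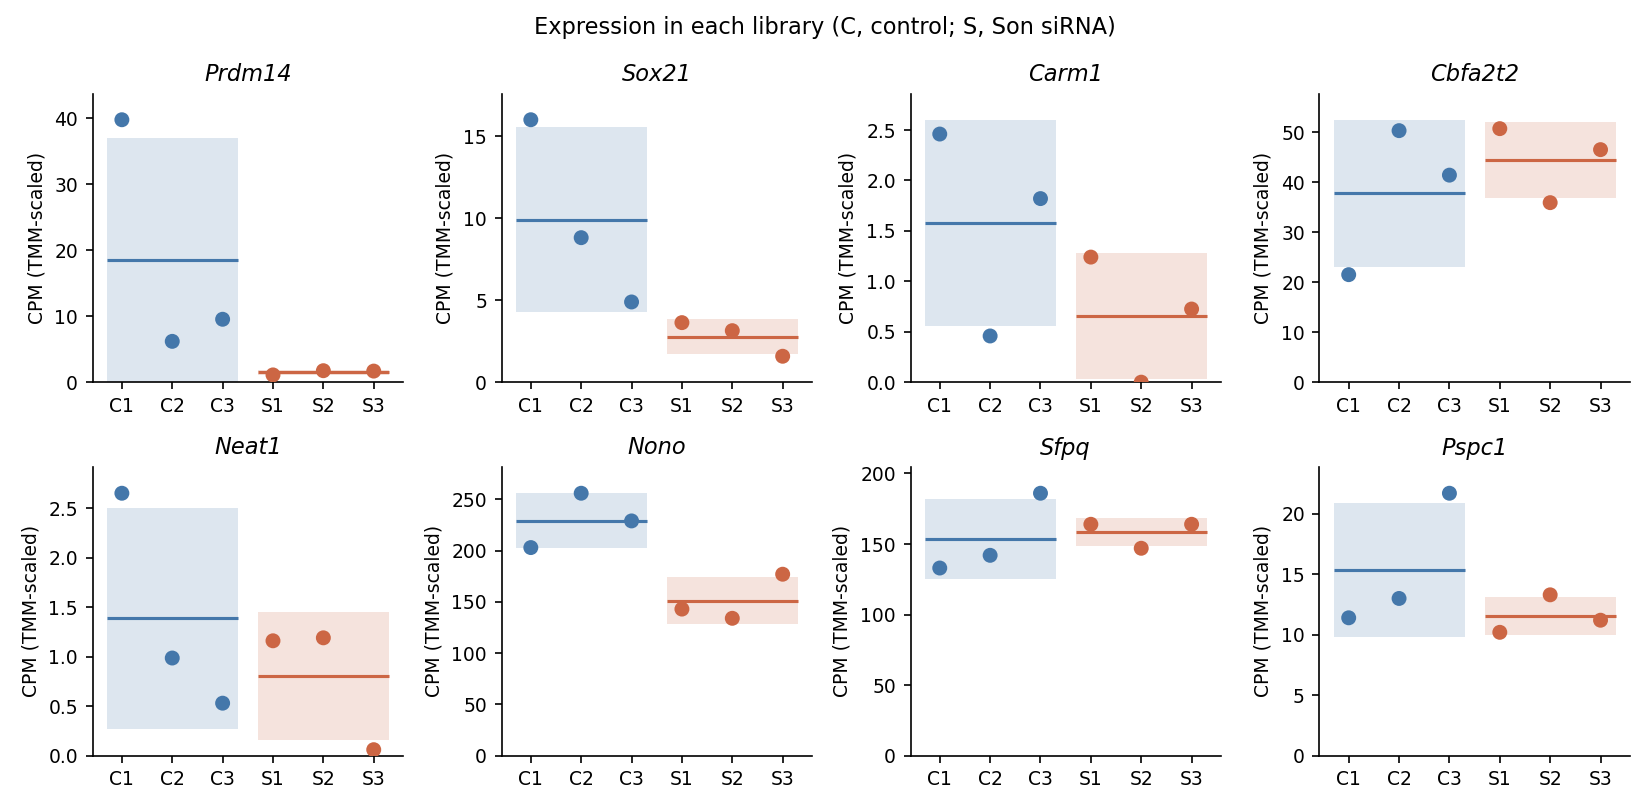
Expression of the 8 genes in each library, in TMM-scaled CPM on linear axes that start at 0; points are libraries (C1 to C3 control, S1 to S3 Son siRNA), lines group means and bands 1 SD (n = 3). Groups are separate for Prdm14, Sox21 and Nono and overlap for the other 5 genes.

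Prdm14 (ENSMUSG00000042414, chromosome 1 from 13113457 to 13127163, minus strand, 8 exons) encodes a regulator that keeps pluripotent cells from differentiating. It had 39.8, 6.19 and 9.54 CPM in controls 1 to 3, and 1.1, 1.74 and 1.68 CPM in siRNA libraries 1 to 3. The lowest control was above every siRNA library, while the controls differed among themselves by a ratio of 6.43. Group means were 18.5 ± 18.5 and 1.51 ± 0.357 CPM (SD, n = 3 each), so that 8.15% of the control mean remained after siRNA. On the log2 scale the difference was -3.62 (SE 0.708; adjusted p = 0.0559 in edgeR's quasi-likelihood test, 5.86e-07 with DESeq2). Over 15 alternatives the log2 fold change ran from -4.03 to -2.38 and the adjusted p from 5.86e-07 to 0.318, with 5 past the threshold.

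Control library 1 held much of the Prdm14 signal. Without it the log2 fold change was -2.38 and edgeR's adjusted p 0.0799, in a fit that called 0.304% of genes as lower. Without control 2 it was -4.03 and past the threshold (adjusted p = 0.0324, with 1.22% of all genes lower), and without control 3 it was -3.93 (adjusted p = 0.0683, 0.413% lower). Without siRNA library 1, 2 or 3 the value stayed between -3.74 and -3.43, with adjusted p of 0.318, 0.208 and 0.298 in fits where 0 genes of any kind were called. The Prdm14 values rest on 703 to 3826 units in controls and on 133 to 223 units after siRNA.

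Sox21 (ENSMUSG00000061517, chromosome 14 from 118233232 to 118237030, minus strand) is a gene of 1 exon that encodes a repressor of the SoxB group. It had 16, 8.81 and 4.89 CPM in controls, against 3.63, 3.14 and 1.58 CPM with Son siRNA. Again the highest siRNA library lay below the lowest control, though by little. Means were 9.89 ± 5.61 and 2.78 ± 1.07 CPM, and the log2 fold change was -1.83 (SE 0.524, adjusted p = 0.142 by edgeR's quasi-likelihood test, 0.0108 by DESeq2). Without control 1 it was -1.30 (edgeR adjusted p = 0.295), and over all 15 alternatives it ran from -2.15 to -1.30.

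The start of Sox21 is overlapped on the opposite strand by Gm4675, a long noncoding RNA gene (ENSMUSG00000090534, chromosome 14 from 118236232 to 118261199, plus strand, 5 exons). The genes share 713 exonic bases, 18.8% of the exonic bases of Sox21 and 23.2% of those of Gm4675. Since the reads carry no strand, those from the shared bases cannot be assigned to either gene. Gm4675 had 71.9, 69.9 and 68.3 CPM in controls, against 30, 28.5 and 21.1 CPM with Son siRNA. It fell by 1.40 on the log2 scale (SE 0.243, edgeR adjusted p = 0.0402; DESeq2 4.85e-06). The 3 controls were close to each other for this RNA (mean 70.1 ± 1.78 CPM), whereas their Sox21 values spread over a ratio of 3.26.

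Per kilobase of exon, Gm4675 had 22.8 ± 0.579 CPM in controls and Sox21 2.6 ± 1.48 CPM. After siRNA the levels were 8.65 ± 1.55 and 0.733 ± 0.282 CPM per kilobase. The part of the shared bases in the Sox21 difference was not tested. Gm4675 was named after its values were seen, because it overlaps one of the 8 genes. Its call was lost with total-count scaling (log2 -1.11, edgeR adjusted p = 0.12), without a filter (0.0504) and without control 1, control 3 or any siRNA library (adjusted p from 0.0665 to 0.289), with log2 fold changes between -1.49 and -1.26 when 1 library was left out.

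**Figure D2:**
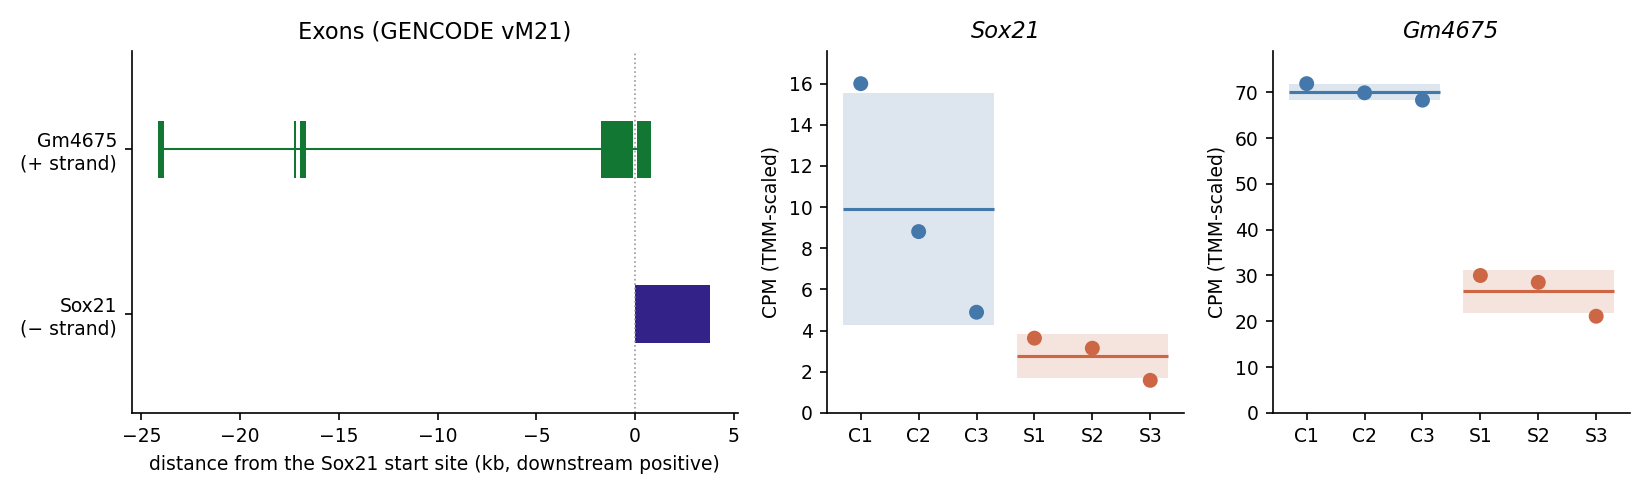
Left, exons of Sox21 and of Gm4675 as distance in kilobases from the Sox21 start site; middle and right, TMM-scaled CPM per library (C1 to C3 control, S1 to S3 Son siRNA) with group mean and 1 SD (n = 3). The first Gm4675 exon lies inside the Sox21 exon, and both genes were lower in each siRNA library than in any control.

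Carm1 (ENSMUSG00000032185, chromosome 9 from 21546894 to 21592623, plus strand), the arginine methyltransferase gene, was near the lower limit of measurement. It had 2.46, 0.458 and 1.82 CPM in controls, against 1.24, 0 and 0.725 CPM with Son siRNA. Groups overlapped, since control 2 was below siRNA libraries 1 and 3. These values rest on 52 to 236 units in controls and on 0 to 150 units after siRNA. The 0 in siRNA library 2 allows a level of up to 0.103 CPM. The log2 fold change was -1.27 (SE 1.35, edgeR adjusted p = 0.745), and alternatives gave -2.87 to -0.70. Of the exonic bases of Carm1, 21.1% overlap Yipf2 on the other strand, which had 1.6 ± 1.84 CPM in controls, against 0.478 ± 0.183 CPM with Son siRNA (log2 -1.74, edgeR adjusted p = 0.459). Yipf2 had 3.7 CPM in control 1 against 0.828 and 0.27 CPM in the other controls, and without control 1 its log2 fold change was -0.20 (edgeR adjusted p = 0.967).

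Cbfa2t2 (ENSMUSG00000038533, chromosome 2 from 154436481 to 154539356, plus strand), which encodes the scaffold that binds PRDM14, had 21.5, 50.3 and 41.4 CPM in controls. The siRNA libraries had 50.7, 35.9 and 46.5 CPM. All siRNA values lay within or just above the control range. The log2 fold change was 0.23 (SE 0.338, edgeR adjusted p = 0.827), and without control 1, the lowest library, it was -0.05. Per kilobase of exon, Prdm14 had 7.22 ± 7.22 CPM and Cbfa2t2 4.36 ± 1.7 CPM in controls, and their ranges overlapped. After siRNA, Prdm14 had 0.588 ± 0.139 and Cbfa2t2 5.13 ± 0.88 CPM per kilobase, with no overlap.

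**Figure D3:**
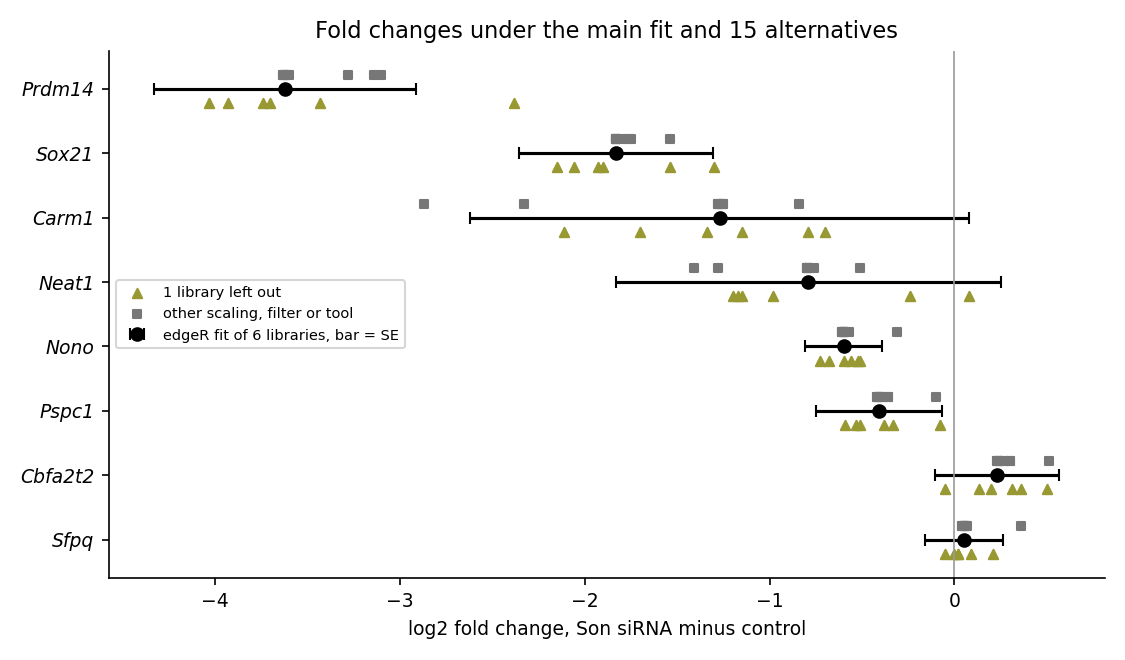
Log2 fold change (Son siRNA minus control) of each gene in the edgeR fit of 6 libraries (black, bar = SE), with 1 library left out (triangles) and under another scaling, filter, tool or block (squares). Prdm14, Sox21, Carm1, Nono and Pspc1 stay below 0 throughout, whereas Neat1, Cbfa2t2 and Sfpq cross 0 when control 1 is left out and Sfpq also without control 2.

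Neat1 (ENSMUSG00000092274), the RNA scaffold of paraspeckles, was scarce in all libraries. It had 2.65, 0.986 and 0.53 CPM in controls, against 1.16, 1.19 and 0.0604 CPM with Son siRNA. Control 1 was highest and siRNA library 3 lowest, with 255 and 8 units, the latter under the floor of 12 units. The other 4 libraries lay between 0.53 and 1.19 CPM with the groups mixed. The log2 fold change was -0.79 (SE 1.04, edgeR adjusted p = 0.806), and without control 1 it was 0.08. Malat1, the abundant nuclear noncoding RNA encoded next to Neat1, had 101 ± 22.7 CPM in controls, against 105 ± 20.1 CPM with Son siRNA (log2 0.06, SE 0.251, edgeR adjusted p = 0.948).

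Nono and Sfpq, both of the DBHS family, were the most abundant of the 8. Nono (ENSMUSG00000031311, chromosome X from 101429318 to 101448591, plus strand) had 203, 256 and 229 CPM in controls, against 143, 134 and 177 CPM with Son siRNA. Every siRNA library was below every control. Means were 230 ± 26.5 and 151 ± 23 CPM (log2 -0.60, SE 0.21, unadjusted p = 0.0188, edgeR adjusted p = 0.223). With total-count scaling it was -0.31 (edgeR adjusted p = 0.602), under which the median of all genes moved up by 0.29.

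Sfpq (ENSMUSG00000028820, chromosome 4 from 127021324 to 127037013, plus strand), whose protein pairs with NONO, had 133, 142 and 186 CPM in controls, against 164, 147 and 164 CPM with Son siRNA. All siRNA libraries lay inside the control range, and the log2 fold change was 0.05 (SE 0.212, edgeR adjusted p = 0.953). Pspc1 (ENSMUSG00000021938, chromosome 14 from 56720710 to 56778316, minus strand), which encodes paraspeckle component 1, had 11.4, 13 and 21.7 CPM in controls. After siRNA it had 10.2, 13.3 and 11.2 CPM, within or just below the control range. The difference was -0.41 on the log2 scale (SE 0.341, edgeR adjusted p = 0.649) and -0.08 without control 3, the highest library.

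Shares within the DBHS family do not depend on the scaling of libraries. Of the summed level per kilobase of exon, Nono made up 60.8%, 64.5% and 54.9% in controls and 47.2%, 47.8% and 52.6% after siRNA. Sfpq made up 36.6%, 33% and 41.1% in controls and 50.2%, 48.5% and 44.9% after siRNA. The ratio of Nono to Sfpq was thus 1.34 to 1.95 in controls and 0.942 to 1.17 after siRNA, with no overlap. Pspc1 was a minor part throughout, at 2.5% to 3.97% in controls and 2.53% to 3.62% after siRNA. No test was made of these shares. The levels of Nono alone did not overlap between groups either, a pattern seen for 23.7% of all genes tested. The summed DBHS level was 87.5 ± 9.9 CPM per kilobase in controls and 70 ± 6.66 after siRNA, and its ranges overlapped.

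**Figure D4:**
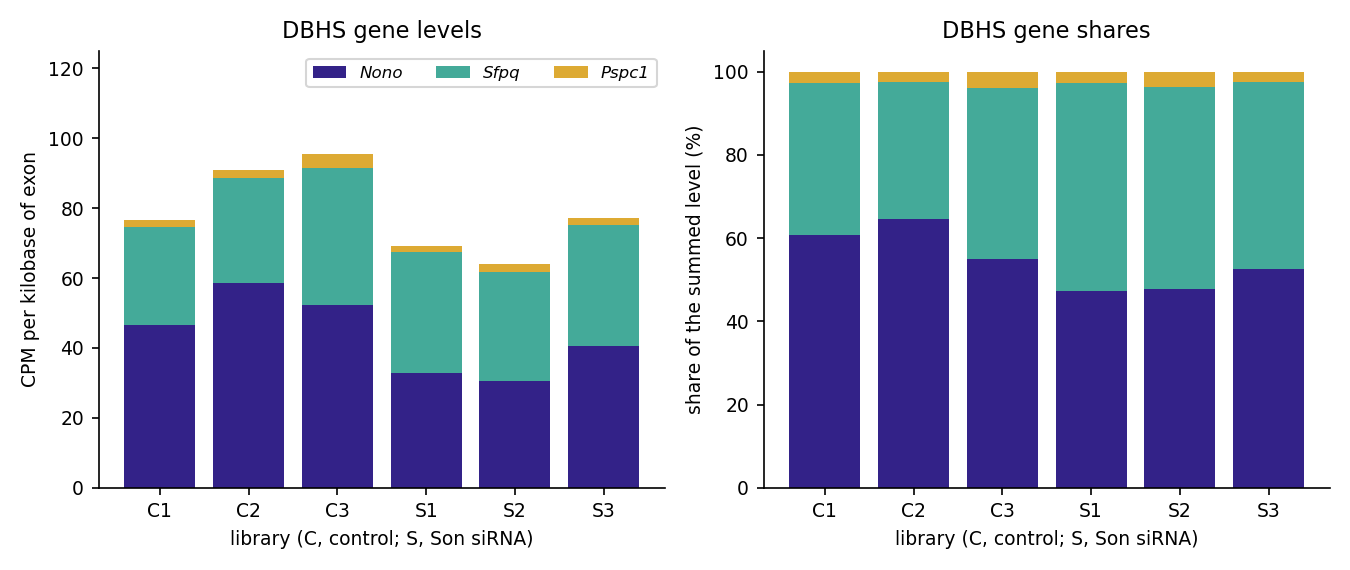
Left, levels of Nono, Sfpq and Pspc1 stacked per library, in TMM-scaled CPM per kilobase of exon; right, each gene's share of that sum in percent (C1 to C3 control, S1 to S3 Son siRNA). The Nono share is 54.9% to 64.5% in controls and 47.2% to 52.6% after siRNA.

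Ordered by level per kilobase of exon in controls, Nono (52.5 ± 6.06 CPM per kilobase) and Sfpq (32.4 ± 5.98) stood above the rest and apart from each other. Prdm14, Cbfa2t2, Pspc1 (2.68 ± 0.968) and Sox21 followed with ranges that overlapped between neighbours. Carm1 (0.325 ± 0.21) and Neat1 (0.0669 ± 0.0538) were lowest and overlapped each other. After siRNA, Nono (34.6 ± 5.27) and Sfpq (33.4 ± 2.1) overlapped, and Cbfa2t2 and Pspc1 (2.02 ± 0.27) came next. Prdm14 and Sox21 then lay side by side with overlapping ranges, above Carm1 and Neat1. Divided by the length of the short transcript instead of all exonic bases, the Neat1 level was 0.463 ± 0.372 CPM per kilobase in controls and 0.268 ± 0.214 after siRNA. Those means lay above the Carm1 means of 0.325 ± 0.21 and 0.135 ± 0.128 CPM per kilobase. The order of Carm1 and Neat1 thus depends on the length used.

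The genes also differed in how evenly the controls expressed them. The SD of log2 CPM among controls was 1.40 for Prdm14, 1.27 for Carm1, 1.15 for Neat1 and 0.85 for Sox21, above the median of 0.68 over all genes tested. It was 0.17 for Nono, 0.26 for Sfpq, 0.49 for Pspc1 and 0.64 for Cbfa2t2, below that median. Genes were not matched for level in this comparison, and Carm1 and Neat1 had few counts. Among siRNA libraries the SD was 0.37 for Prdm14, below the median of 0.41 there. It was 3.35 for Carm1, 2.27 for Neat1 and 0.64 for Sox21, and 0.09 to 0.26 for Nono, Sfpq, Pspc1 and Cbfa2t2. Control 1 had the highest control value for Carm1, Prdm14, Sox21 and Neat1 and the lowest control value for the other 4 genes. Nanog and Pou5f1 were highest in control 1 as well, with 21.3 and 5.75 CPM against 9.64 to 14.6 and 1.88 to 3 CPM in the other controls. Gata6 was also highest there (15.7 CPM), while Klf4, Sall4 and Tead4 had their lowest control values in control 1 (32.3, 902 and 22.3 CPM). In that library 15.3% of counts were mitochondrial, against 9.79% and 16% in the other controls. Without control 1 the log2 fold change was -0.79 for Carm1, -0.68 for Nono, -0.59 for Pspc1 and -0.05 for Sfpq, and the values of the other 4 genes without it stand with each of them.

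Other genes of these pathways were read from 6 lists, beside the median of 0.02 over all genes tested. These lists were chosen with earlier results of these data known, so their order is a description only. The list of SoxB genes and the OCT4 and SOX2 network, which also holds Tead4 and Gata6, stood lowest. Its median was -1.05 over 8 tested of 13 listed genes. The only listed SoxB gene that was tested, Sox1, was named after its values were seen (log2 -0.75, SE 1.68, edgeR adjusted p = 0.902). Sox2, Sox3 and Sox14 were too low to be tested, so the list median says little about the SoxB genes. Nanog, a core pluripotency gene, fell from 15.2 ± 5.86 to 3.22 ± 0.335 CPM (log2 -2.24, SE 0.384, edgeR adjusted p = 0.0402). It was the 1 gene of the list past the threshold, while 6 had an unadjusted p under 0.05, all lower, and DESeq2 called 5. Over all genes tested these shares were 0.899%, 8.86% and 4.63% lower. Gata6, a primitive endoderm gene, had 10.9 ± 4.28 and 1.94 ± 1.15 CPM (log2 -2.49, edgeR adjusted p = 0.0656), and Klf4 36.1 ± 5.66 and 17.1 ± 3.93 CPM (log2 -1.08, edgeR adjusted p = 0.119). Pou5f1, which encodes OCT4, had 3.55 ± 1.99 and 1.01 ± 0.32 CPM (log2 -1.81, edgeR adjusted p = 0.177). Sox2 was at most 0.406 CPM, and Cdx2 was at 0 in all libraries but control 1, which had 0.208 CPM, so neither was tested.

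Of 7 genes that PRDM14 represses in embryonic stem cells, 1 passed, and it was lower, against 0.899% of all genes tested. Fgfr2, a fibroblast growth factor receptor gene, fell from 61.5 ± 28.2 to 10.5 ± 5.41 CPM (log2 -2.55, SE 0.476, edgeR adjusted p = 0.0487). Dnmt3b, a DNA methyltransferase gene, had a log2 fold change of -1.12 (edgeR adjusted p = 0.326) and Dnmt3a one of 0.27 (edgeR adjusted p = 0.692). The list median was -0.14, and at an unadjusted p under 0.05, 2 were lower, against 8.86% of all genes tested. The Fgfr2 call was lost without control 1 (adjusted p = 0.109), control 3 (0.0897) or siRNA library 1, 2 or 3 (0.304, 0.0909 and 0.289), and with total-count scaling (0.0811), upper-quartile scaling (0.0531) or no filter (0.0584). The Nanog call was lost without control 1 (adjusted p = 0.0869) or siRNA library 1, 2 or 3 (0.287, 0.145 and 0.274), and with total-count scaling (0.0943) or no filter (0.0504).

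Among 11 partners of PRDM14 and CBFA2T2, 0 passed and the median was -0.23. At an unadjusted p under 0.05, 1 was lower, and DESeq2 called the same number, against 8.86% and 4.63% of all genes tested. Hdac1, a histone deacetylase gene, had 104 ± 5.37 and 51.5 ± 6.7 CPM (log2 -1.01, edgeR adjusted p = 0.07; DESeq2 0.000723), and Ncor1, a corepressor gene, a log2 fold change of 0.46 (edgeR adjusted p = 0.353). Of 12 partners and substrates of CARM1, 0 passed, 0 had an unadjusted p under 0.05, and DESeq2 called 0. Their median was 0.01, with Ncoa2, a steroid receptor coactivator gene, at 0.74 (edgeR adjusted p = 0.355) and Tdrd3, which encodes a reader of methylated arginine, at 0.69 (edgeR adjusted p = 0.39).

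Other paraspeckle proteins numbered 35 in the list, of which 33 were tested, with 0 past the threshold and a median of -0.05. At an unadjusted p under 0.05, 3 of the 33 were lower and 2 higher, shares near the 8.86% and 5.88% over all genes tested. DESeq2 called 2 of the 33 lower, against 4.63% of all genes tested. These 2 were the splicing regulator genes Hnrnpa1 (log2 -0.85, edgeR adjusted p = 0.135) and Hnrnph1 (log2 -0.76, edgeR adjusted p = 0.132). Around the Neat1 locus, 5 of 6 neighbours were tested, 0 passed by edgeR or DESeq2 and 0 had an unadjusted p under 0.05. Tigd3, a gene derived from a DNA transposon, had a log2 fold change of 1.14 (edgeR adjusted p = 0.391), and Ltbp3, whose protein binds latent TGF-beta, one of 0.57 (edgeR adjusted p = 0.606).

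**Figure D5:**
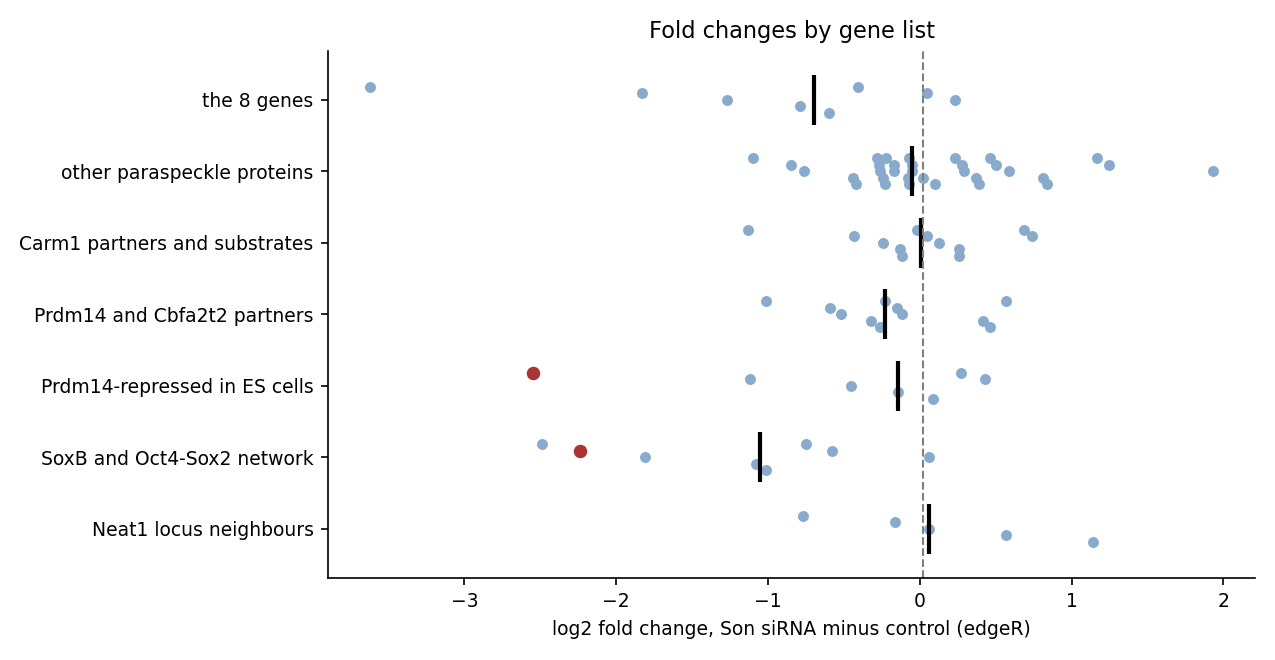
Log2 fold changes (Son siRNA minus control, edgeR) of the 8 genes and of the tested members of 6 related lists; each point is a gene, red where the adjusted p is under 0.05 (Fgfr2 and Nanog), black bars are list medians and the dashed line is the median of all genes tested, 0.02. List medians run from -1.05 for the list of SoxB genes and the OCT4 and SOX2 network to 0.06 for the Neat1 neighbours.

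Profiles most like those of 4 of the genes were found among 6854 named genes with at least 5 CPM on average, by the root mean square difference of centred log2 CPM over the 6 libraries. The closest to Prdm14 was Mthfsd (difference 0.33), with 25, 5.73 and 4.8 CPM in controls, against 0.776 to 1.72 CPM with Son siRNA, followed by Smpdl3a (0.55) and Ccdc160 (0.57). For Sox21 the closest were Ppm1k and Ppt2 (0.30 each) and Slc12a7 (0.36). Neat1 was most like Zfp933 (0.48), Nkiras2 (0.67) and Ppt2 (0.82). None of these candidates came close to Carm1, where Yy2 (1.34) and Zfp738 (1.45) were among the nearest and the library at 0 sets most of the distance. Carm1 and Neat1 were themselves below 5 CPM in every library, so genes at their own level were not searched. Each profile holds the group difference as well as the spread among controls, so a small difference describes these 6 libraries only.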

How the data were processed

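The labels' protocols name a company lysis solution for the embryos and Smart-Seq2 for the cDNA library. HISAT2 2.0.5 and StringTie 1.3.3b with GRCm38 come from the submitters' processing notes, while their roles, filters and annotation release were not given in the sources used here. For every library the authors deposited whole-number estimated counts over 46072 genes, without normalization. Low values were multiples of 4 for 26.4% to 32.4% of genes, little above what evenly spread whole numbers would give, so 4 units per read pair is an assumption that the values bear out only weakly, and floors depend on it. Of the genes, 45137 matched GENCODE vM21 (GRCm38), which gave coordinates, exons, overlaps and transcript ends. Replicate numbers were taken from the titles.

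Counts were fitted in edgeR 4.0.16 (R 4.3.3) with filterByExpr, TMM scaling, glmQLFit and glmQLFTest without a block, over 17788 genes, with Benjamini-Hochberg adjustment and a threshold of 0.05. Spearman correlations were 0.886 for each pair of controls and 0.904 to 0.908 between siRNA libraries. Across groups they were 0.879 to 0.893, so controls were about as like siRNA libraries as like each other. Alternatives were DESeq2 1.42.0, limma-voom (limma 3.58.1), other scalings and filters (among them 50 units in 3 libraries), counts divided by 4, a replicate block and leaving out each library. Counts at an unadjusted p and the short Neat1 length were added after the data were seen. The fit was tested on simulated data. The 8 genes and the lists were chosen with earlier results of these data known. Named genes were the 8, Son, list members past the threshold, up to 2 more per list by smallest p, Sox2, Pou5f1, Nanog, Cdx2, Malat1 and the 3 most similar profiles for 4 genes, of which 1 is not reported here. The paraspeckle list gene Zfp24 was not analysed here. Values for FPKM or TPM were planned but not needed, since the files hold counts.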

Additional observations from a re-analysis of the deposited data

How the results depend on the processing

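Of the 8 genes, 0 passed edgeR's adjusted threshold with all libraries, size factors in the style of DESeq2, total-count or upper-quartile scaling, no filter or the replicate block. With the stricter filter, counts divided by 4 and limma-voom 1 passed, Prdm14 each time, and with DESeq2 2, and leaving out 1 library gave 0 to 1. The log2 fold changes of Prdm14, Sox21, Carm1, Nono and Pspc1 stayed below 0 in all 15 alternatives. Without control 1, Neat1 turned to 0.08, Sfpq to -0.05 and Cbfa2t2 to -0.05, and without control 2 Sfpq turned to -0.002; the cause was not tested. With 1 library left out in turn, Neat1 ran from -1.20 to 0.08, Sfpq from -0.05 to 0.21 and Cbfa2t2 from -0.05 to 0.50. In the 6 related lists, 2 genes passed, against 0 with total-count scaling, 0 without a filter, 1 with upper-quartile scaling, 4 with counts divided by 4, 4 with limma-voom, 9 with DESeq2 and 0 to 3 with 1 library left out.

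The main fit was planned without pairs. Deviations from the group means had correlations of -0.244, -0.299 and 0.0282 between samples with the same replicate number (7759 genes). With 3 libraries per group these deviations are tied to each other, so the correlations cannot settle whether the numbers mark pairs. Across unlike numbers the correlations ran from -0.159 to 0.342, the highest for control 1 with siRNA library 2. Whether libraries share a batch under another pairing was not tested. With the replicate block 0 genes of all tested passed, 0 in the related lists, and Prdm14 had a log2 fold change of -3.10 (edgeR adjusted p = 0.158). Son was -3.29 with the block (adjusted p = 0.0617) and -3.50 to -3.12 with 1 library left out.

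Over all genes, 160 lower and 16 higher calls compared with 35 and 7 by total counts, 91 and 9 without a filter, 245 and 43 with the stricter filter, 279 and 51 with counts divided by 4, 330 and 43 with limma-voom and 823 and 405 with DESeq2. Leaving out siRNA library 1, 2 or 3, 0 were called each time (1733 to 2348 at an unadjusted p under 0.05), without control 1 58 and 6, without control 2 231 and 84, and without control 3 79 and 8. Low counts limit what can be said of Carm1 and Neat1.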

Other observations

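Rbm4b, a splicing regulator on the paraspeckle list that was named after its values were seen, had 27.2, 38 and 38.3 CPM in controls. After siRNA it had 1.44 CPM in library 1 and 23.6 and 23.4 CPM in libraries 2 and 3 (log2 -1.10, SE 0.769, edgeR adjusted p = 0.572). Its neighbouring paralog Rbm4 had 8.33, 6.69 and 9.71 CPM in the same libraries and 8.37 ± 0.666 CPM in controls. The genes are close copies, and whether reads were split between them was not tested.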
